A study of Gorilla gorilla gorilla with 13 samples.

Results

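The genes described here encode the proteins of the cytosolic ribosome. They were taken from the hg38 count table by symbol, as names that begin with RPL or RPS followed by a number and at most 1 of the letters A, L or X, with the stalk genes RPLP0, RPLP1 and RPLP2 and with RPSA. The rule found 77 of 18137 genes, of which 46 belong to the large subunit and 31 to the small subunit. Of these, 76 had enough counts to be tested among 16804 genes. RPL10L held 32 counts over all libraries and was not tested.

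Cytosolic ribosomal proteins assemble with ribosomal RNA in the nucleolus and then work in the cytoplasm, where the small subunit reads the mRNA and the large subunit joins the amino acids. Most of their mRNAs begin with a terminal oligopyrimidine (TOP) tract, through which mTOR signalling controls their translation. Transcription of their separate genes is usually coordinated. They have given rise to large families of processed pseudogenes, whose sequence can be close enough to the parent gene to compete for short reads. In the developing brain, early neural progenitors are known for high ribosome production, which declines as they differentiate.

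The libraries came from cerebral organoids, brain-like cultures grown from stem cells, of 1 gorilla induced pluripotent stem cell line named GC1, collected at week 8 of culture, give or take 3 days. Cells were sorted into 4 populations without any treatment: neurons (N, 2 libraries), basal intermediate progenitors (bIP, 3), basal radial glia (bRG, 4) and apical radial glia (aRG, 4). The neurons are labelled BCL11B-positive. Each library was made from RNA of 10000 cells with the Smart-seq2 protocol, which copies whole polyadenylated transcripts and uses no molecular identifiers. Separate cultures are not stated for the libraries of a population, so a p-value measures only how far these libraries spread, possibly for technical reasons, and all belong to 1 stem cell line. The number on a neuron column of the table matches none of the neuron labels, and that library is called the unnumbered N library.

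Total counts per library lay between 5464721 and 12524938. Radial glia markers summed to 2544 to 4400 CPM (counts scaled to a common library total) in bRG and 3197 to 4391 in aRG, and to 129.4 to 173.7 in N and bIP. Neuron markers summed to 8897 and 9222 CPM in N, 6052 to 6159 in bIP, 1377 to 2405 in bRG and 1154 to 1830 in aRG. BCL11B measured 271.5 and 489.5 CPM in N and 33.22 to 240.8 CPM in the other populations. The bIP label was not matched by its defining gene: EOMES measured 31.01 to 126.6 CPM in bIP, below the 259.8 to 459.6 CPM of bRG. The sum of the intermediate progenitor markers was also lower in bIP, at 619.2 to 1004 CPM against 1051 to 1314 CPM in bRG. Library bRG 3 stood apart in MALAT1, a nuclear RNA that took 21.27% of its gorGor6 counts, against 6.348% to 10.76% in the other libraries. Values without bRG 3 are given beside the main differences that involve bRG.

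The 77 genes took 0.7079% to 1.235% of the counts of a library. Their share was 0.9726% in N 1 and 0.7752% in the unnumbered N library. It was 1.101%, 0.9311% and 0.9129% in bIP 1 to 3, and 0.9248%, 1.057%, 0.7079% and 0.9327% in bRG 1 to 4. In aRG 1 to 4 the share was 0.9459%, 1.235%, 1.088% and 1.173%. The population means were 0.874% ± 0.140 (SD, n = 2) in N, 0.982% ± 0.104 (n = 3) in bIP, 0.906% ± 0.145 (n = 4) in bRG and 1.11% ± 0.125 (n = 4) in aRG, and the ranges of every pair of populations overlapped. After TMM scaling, which sets libraries to a common level over most genes, the summed level was 9058 and 10910 CPM in N, 8872 to 10170 CPM in bIP, 8409 to 8805 CPM in bRG and 10060 to 12470 CPM in aRG. In that sum the bRG libraries were nearly level with one another and all lay below the lowest aRG library. The mean log2 CPM of the tested genes, which weighs genes more evenly, was lowest of all libraries in bRG 3. It was 6.241 there and 6.368 to 6.397 in the other bRG libraries. A share of counts in bulk RNA cannot tell fewer cells of one kind from less RNA per cell.

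**Figure D1:**
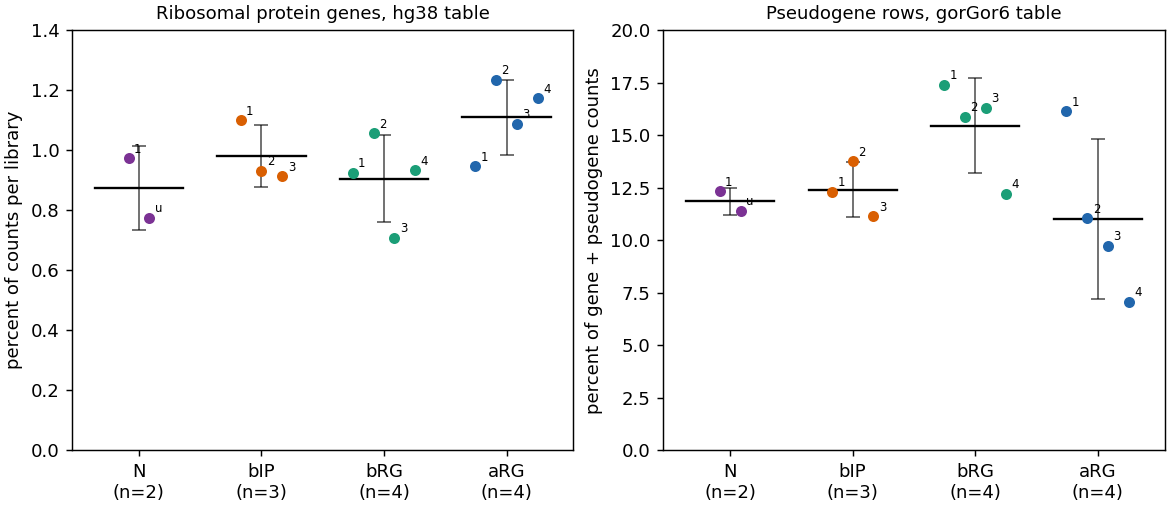
The left plot shows the share of hg38 counts taken by the 77 ribosomal protein genes (percent), and the right plot the share of gene plus pseudogene counts that fell on pseudogene rows in the gorGor6 table (percent). Each point is a library with its number (u is the unnumbered N library), lines are means and bars are SD, and the populations overlap in both plots.

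Between basal and apical radial glia, most of the genes lay lower in bRG, and RPL8 and RPS15 fell past the threshold. The median log2 fold change of the 76 tested genes, bRG minus aRG, was -0.38, against 0.04 over all genes tested, and 66 of the 76 were negative, against 46.7% of all genes. Of the 76 genes, 0 were called higher and 2 lower in edgeR's quasi-likelihood test (adjusted p under 0.05), which is 2.63% of them. The background was 1.26% of all genes tested, made up of 0.0298% higher and 1.23% lower. At an unadjusted p under 0.05, 29 of the 76 were lower and 0 higher, where all genes gave 6.19% lower and 3.28% higher. In 19 genes (25%) every bRG library lay below every aRG library, against 4% of all genes. The median was -0.42 over 45 large subunit genes and -0.35 over 31 small subunit genes. The genes used as background were not matched for level or spread. Within populations the median SD of log2 CPM was 0.282 over the 76 genes and 0.528 over all genes tested. With a smaller spread, ranges part and p falls at a smaller difference.

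RPL8, a large subunit protein that sits beside the peptidyl transferase centre, measured 82.71, 107.9, 60.48 and 99.36 CPM in bRG 1 to 4, against 163.7, 168.7, 145.4 and 231.2 CPM in aRG 1 to 4. The ranges did not overlap, and the highest bRG library stayed below the lowest aRG library. RPL8 fell by 1.02 on the log2 scale (SE 0.223, 95% interval -1.49 to -0.55, edgeR adjusted p = 0.0246). RPS15, a protein of the head of the small subunit, measured 94.67, 96.11, 78.98 and 78.52 CPM in bRG, against 159.7, 189.1, 114.9 and 203.5 CPM in aRG. Its groups did not overlap either, with aRG 3 the closest to the bRG libraries. RPS15 fell by 0.94 (SE 0.217, edgeR adjusted p = 0.0372). RPL29, a basic protein of the large subunit, had 28.71, 29.70, 16.27 and 34.07 CPM in bRG and 39.75, 53.38, 52.27 and 69.79 CPM in aRG. Its ranges were apart, but its log2 fold change of -0.99 did not pass (SE 0.269, edgeR adjusted p = 0.109), nor did the -0.80 without bRG 3 (adjusted p = 0.136).

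The direction of the median held when radial glia libraries were compared within numbers. Without bRG 3 the median was -0.37, against -0.02 over all genes. Over libraries 1 and 2 the median difference in log2 CPM was -0.30, and over libraries 3 and 4 it was -0.51, against -0.04 over all genes in each. Without bRG 3, 68 of the 76 genes were negative (all genes 52.1%), 27 were lower at an unadjusted p under 0.05 (all genes 7.47%) and 23 had a bRG range below the aRG range (all genes 6.21%). Without aRG 4, the library with the highest level for 34 of the 76 genes, those numbers were 65 (all genes 45.6%), 11 (4%) and 16 (4.22%), so the count at an unadjusted p depended on that library. RPL8 kept its call without bRG 3 (log2 fold change -0.87, edgeR adjusted p = 0.037) and lost it without aRG 4 (log2 fold change -0.84, edgeR adjusted p = 0.174), and, with changes near or beyond -1, without bRG 1 (adjusted p = 0.0899), bRG 4 (0.051) or aRG 2 (0.0507). RPS15 lost its call in 10 of 13 removals of a single library, with the highest adjusted p without aRG 4 (-0.81, adjusted p = 0.222). Without bRG 3, RPS15 was at -0.89 and did not pass (edgeR adjusted p = 0.0548). Markers of other cells and of mitosis moved with this comparison. Choroid plexus and hem markers summed to 358.5 to 1486 CPM in bRG and 1727 to 8017 CPM in aRG. Mesenchyme markers summed to 196.8 to 222.6 and 240.1 to 477.6 CPM, and mitosis markers to 1200 to 1806 and 4101 to 8042 CPM. Of these lists, 1 of 10, 1 of 10 and 14 of 15 tested markers were called lower in bRG, and no list had a marker called higher. In aRG the choroid plexus and hem sum was mostly TTR, a transport protein of that epithelium (627.6 ± 423 CPM in bRG and 4512 ± 2530 CPM in aRG, SD, n = 4 each), and 4 of the 10 markers had positive values. Intermediate progenitor markers lay the other way, at 1051 to 1314 CPM in bRG and 498 to 766.6 CPM in aRG, with 9 of 10 positive, 5 higher at an unadjusted p under 0.05 and none called. TWIST1, a mesenchyme marker, was at 0 in bRG 3 and in aRG 1. Their part in the result was not tested.

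**Figure D2:**
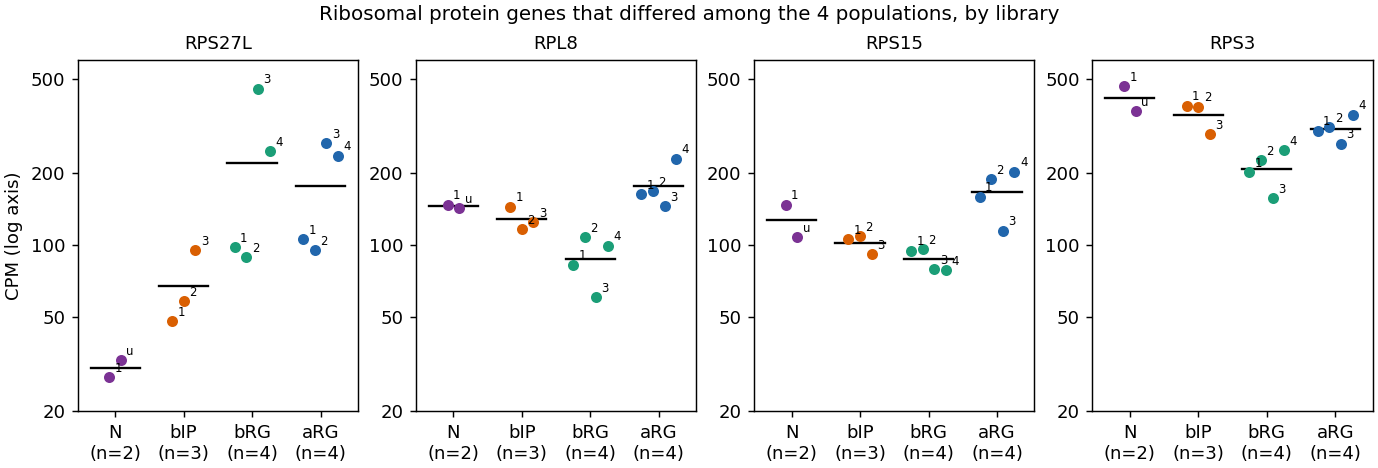
Scaled level (CPM, log axis) of 4 ribosomal protein genes that differed among the 4 populations, 1 plot per gene, with a point per library, its number beside it and the population mean as a line. RPL8 and RPS15 are lowest in bRG with no overlap with aRG, RPS3 is highest in N, and RPS27L is lowest in N and split between low and high libraries in both radial glia populations.

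Against aRG, basal intermediate progenitors and neurons also had negative medians, and 1 gene was called in each comparison. Choroid plexus and hem markers summed to 275.9 and 471.5 CPM in N and 328.8 to 448.9 CPM in bIP, below the aRG sums given above, with 6 and 5 of 10 called lower. Mesenchyme markers summed to 96.82 and 149.2 CPM in N and 129.4 to 183.9 CPM in bIP, with 6 and 3 of 10 called lower than in aRG, and all 15 mitosis markers were called lower in both. Their part in these comparisons was not tested. For bIP minus aRG the median was -0.22 (all genes -0.04), with 58 of 76 negative (all genes 51.9%). Here 1 gene was called, which is 1.32% against a background of 18.4%. That gene was RPS15, at 106, 108.9 and 91.33 CPM in bIP against the aRG values above. All 3 bIP libraries lay below the lowest aRG library, and RPS15 fell by 0.71 (SE 0.236, edgeR adjusted p = 0.0445). The call was lost in 10 of 13 removals of a single library, with adjusted p up to 0.158. Unadjusted, 9 genes were lower and 0 higher, a share below the background of 15% lower and 13.4% higher. Ranges that did not overlap were found for 15 genes, all lower in bIP (19.7%), against 16.7% of all genes lower and 15.7% higher. Among these, RPLP0, the scaffold of the ribosomal stalk, had 216.8, 158.2 and 152.2 CPM in bIP and 255.5, 231.8, 254.9 and 306.6 CPM in aRG, a log2 difference of -0.58 (SE 0.221, edgeR adjusted p = 0.0817).

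For N minus aRG the median was -0.15 (all genes -0.05), with 58 of 76 negative (all genes 52.5%). RPS27L was the 1 gene called, which is 1.32% of the 76 against a background of 19.8%. The range in N lay below that in aRG for 13 genes (17.1%, all genes 21.7%) and above it for 3 (3.95%, all genes 22.4%). RPS19, the small subunit gene most often mutated in the anaemia of Diamond and Blackfan, had 220.9 and 179.8 CPM in N, 246.2, 201.5 and 181.7 CPM in bIP, 232.2, 239, 160.8 and 202.5 CPM in bRG, and 285.1, 345.3, 261.1 and 335.6 CPM in aRG. All libraries of the other populations lay below the lowest aRG library. The differences did not pass the threshold, at -0.62 for N minus aRG (SE 0.256, edgeR adjusted p = 0.107), -0.55 for bIP minus aRG (SE 0.223, adjusted p = 0.104) and -0.56 for bRG minus aRG (SE 0.204, adjusted p = 0.343). Without bRG 3 the bRG value was -0.45 (edgeR adjusted p = 0.355), and the N value, still -0.62, passed (adjusted p = 0.0446). These 3 comparisons share the aRG libraries. RPS12, of the small subunit, was also among the lowest for N minus aRG, at 27.82 and 19.59 CPM in N and 29.45, 43.68, 41.46 and 43.60 CPM in aRG, a log2 difference of -0.74 (SE 0.333, edgeR adjusted p = 0.140). Its pseudogene rows held more counts than the gene, as described further on. RPS23, a protein of the decoding centre, lay the other way, at 111.5 and 98.42 CPM in N and 66.85, 60.95, 59.07 and 79.17 CPM in aRG, a log2 difference of 0.66 (SE 0.276, edgeR adjusted p = 0.109). RPL15 and RPS10 had log2 fold changes of 0.39 and 0.51 for N minus aRG with overlapping ranges. Both depended on single neuron libraries: RPL15 was at 0.69 without N 1 and at 0.013 without the unnumbered N library, and RPS10 at 0.74 and 0.24.

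**Figure D3:**
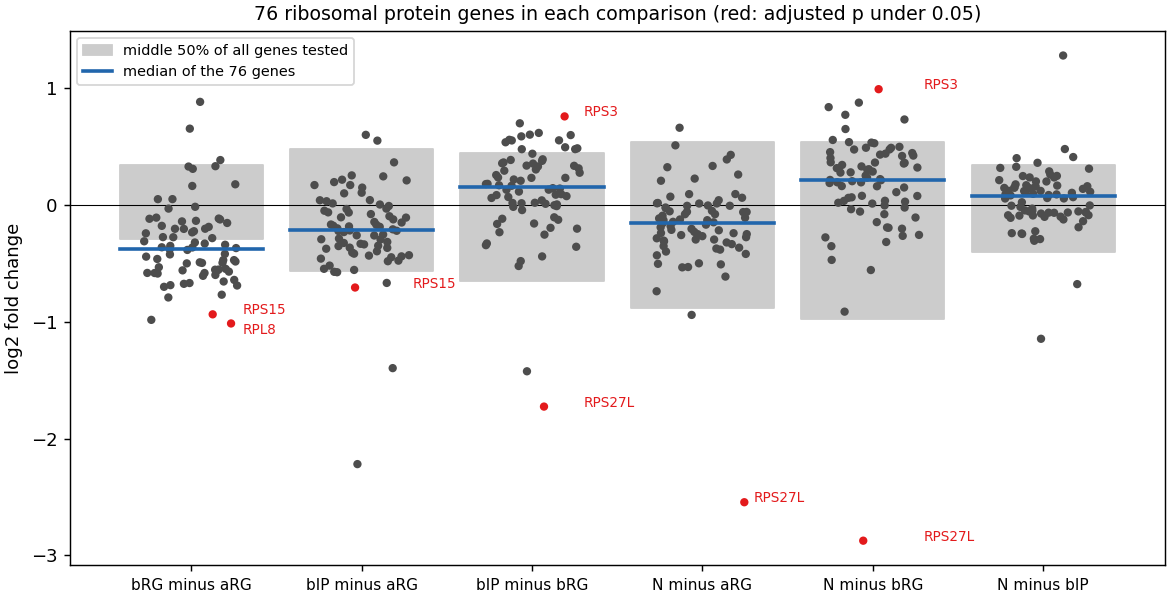
Log2 fold change of each of the 76 tested ribosomal protein genes in the 6 comparisons, with called genes in red and named, the median of the 76 as a blue line and the range between the quartiles of all genes tested as a grey bar. The medians of -0.38, -0.22 and -0.15 against aRG lie below 0, those of 0.15 and 0.22 against bRG lie above it, and only points of RPS27L, RPL39L and RPL8 go beyond 1 in either direction.

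Against bRG the medians had the opposite sign. For bIP minus bRG the median was 0.15 (all genes -0.09), with 55 of 76 positive (all genes 44.9%). RPS3 was called higher and RPS27L lower, which makes 2.63% of the 76 against a background of 16.7%. For N minus bRG the median was 0.22 (all genes -0.09), with 57 of 76 positive (all genes 46.6%). The same 2 genes were called in the same directions, again 2.63%, against a background of 19.8%. In 18 genes (23.7%) both N libraries lay above every bRG library, against 19.9% of all genes. Without bRG 3 the medians were 0.15 for bIP and 0.23 for N. Both comparisons share the bRG libraries. Markers of mitosis and of other cells moved here too. Against bRG, 14 of 15 mitosis markers were called lower in N and in bIP. So were 4 and 3 of 10 choroid plexus and hem markers and 2 and 1 of 10 mesenchyme markers. Of 10 intermediate progenitor markers, 1 was called higher and 4 lower than in bRG, both in N and in bIP. Their part in these comparisons was not tested.

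RPS3 lines the mRNA entry channel of the small subunit and has also been described in DNA repair. It measured 465 and 365.7 CPM in N, 386.1, 381.7 and 292.5 CPM in bIP, 202.2, 227.6, 157 and 250.7 CPM in bRG, and 303, 313, 266.8 and 353.6 CPM in aRG. Every bRG library lay below all libraries of the other populations. RPS3 was higher by 0.99 for N minus bRG (SE 0.246, edgeR adjusted p = 0.00789) and by 0.76 for bIP minus bRG (SE 0.222, edgeR adjusted p = 0.0251). Against aRG it was 0.43 for N (SE 0.250, edgeR adjusted p = 0.270) and -0.56 for bRG (SE 0.208, edgeR adjusted p = 0.343), neither past the threshold. Without bRG 3 the bRG minus aRG value was -0.45, and the N minus bRG and bIP minus bRG values were 0.87 and 0.64, both still called (edgeR adjusted p = 0.00747 and 0.0334). The N minus bRG value was 0.81 without N 1, and the bIP minus bRG call was lost without bIP 1 (edgeR adjusted p = 0.108), bIP 2 (0.105) or bRG 1 (0.0594). A pseudogene row of RPS3 held more gorGor6 counts in every N and bIP library than in any bRG library, as described further on. RPL15, a large subunit protein, had 169.9 and 271.9 CPM in N and 96.9, 93.44, 149 and 143 CPM in bRG, and just missed the threshold (log2 fold change 0.87, SE 0.309, edgeR adjusted p = 0.0552). RPS23 missed it as closely for N minus bRG (0.77, SE 0.275, edgeR adjusted p = 0.0581), with 50.75, 43.72, 79.46 and 72.33 CPM in bRG. Without bRG 3 both passed, RPL15 at 0.99 (edgeR adjusted p = 0.0242) and RPS23 at 0.91 (adjusted p = 0.0138), while RPL15 was at 0.50 without the unnumbered N library (adjusted p = 0.497).

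No gene of the 76 passed the test between neurons and intermediate progenitors. For N minus bIP, edgeR called 0 of 76 (0%, background 0.113%), none passed an unadjusted p under 0.05 (all genes 2.07% higher and 4.56% lower), and DESeq2 and limma also called 0. The median was 0.07, the same as over all genes to that precision. Of the 76, 43 genes were positive (56.6%, all genes 56%) and 33 negative. The smallest adjusted p was 0.801, for RPS27L, and the median standard error of a log2 fold change was 0.292, so differences of that size were within the error of 2 against 3 libraries.

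Over the 4 populations at once, 5 of the 76 genes differed in edgeR's quasi-likelihood test, which is 6.58%, against a background of 22.5% of all genes. They included RPS27L (adjusted p = 0.00504), RPL8 (0.0156), RPS15 (0.0158) and RPS3 (0.0227). RPL29 did not pass (0.0563).

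RPS27L is a paralog of RPS27. It measured 27.82 and 32.74 CPM in N, 47.78, 58.11 and 95.19 CPM in bIP, 97.92, 88.76, 453.9 and 247.9 CPM in bRG, and 105.7, 95.20, 268.1 and 237.8 CPM in aRG. Both N libraries lay below every other library, and libraries 3 and 4 of both radial glia populations lay well above libraries 1 and 2. RPS27L fell by 2.55 for N minus aRG (SE 0.633, edgeR adjusted p = 0.0074) and by 2.87 for N minus bRG (SE 0.645, edgeR adjusted p = 0.00376). For bIP minus bRG it fell by 1.73 (SE 0.514, edgeR adjusted p = 0.0266) although the ranges overlapped, and without bRG 3 the value was -1.11 and did not pass (adjusted p = 0.0852). That call was also lost without bIP 1 (adjusted p = 0.120), bIP 2 (0.109) or bRG 4 (0.0536). It did not pass for bIP minus aRG (-1.40, edgeR adjusted p = 0.0649), N minus bIP (-1.15, adjusted p = 0.801) or bRG minus aRG (0.33, adjusted p = 0.876). The sign of the bRG minus aRG value rested on bRG 3, without which it was -0.29 (edgeR adjusted p = 0.846). Without N 1 both calls of a lower level in neurons were lost (adjusted p = 0.0889 for N minus aRG and 0.0570 for N minus bRG), and without the unnumbered N library that for N minus aRG (0.0677), each with a lone neuron library assumed to vary like the other populations.

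RPS27 was not called in any comparison. It measured 321.5 and 122.4 CPM in N, 285.6, 234.2 and 161.6 CPM in bIP, 323.5, 267.5, 248.7 and 176.2 CPM in bRG, and 247.7, 401.8, 300.8 and 221.4 CPM in aRG. The populations overlapped, and the 2 neuron libraries were further apart than the means of any populations. For N minus aRG its log2 fold change was -0.40 (SE 0.370, 95% interval -1.18 to 0.38, edgeR adjusted p = 0.514), and it ran from -1.25 without N 1 to 0.14 without the unnumbered N library.

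The other paralogs had few counts, with 516 for RPL39L, 237 for RPL3L and 32 for RPL10L over the 13 libraries. RPL39L, known for its expression in testis, had 2.574 and 4.851 CPM in N, 1.642, 0.3181 and 2.607 CPM in bIP, 0.5127, 4.116, 7.78 and 3.997 CPM in bRG, and 3.794, 4.996, 5.649 and 14.12 CPM in aRG. All bIP libraries lay below the aRG libraries, and the difference of -2.22 did not pass (SE 0.812, edgeR adjusted p = 0.0676). RPL3L, a heart and skeletal muscle paralog of RPL3, lay between 0.3537 CPM in bRG 3 and 6.091 CPM in bRG 4 with no call in any comparison. RPL10L, which in mice stands in for the X-linked RPL10 during male meiosis, stayed under 1 CPM in every library except aRG 3 (1.628 CPM).

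The stalk recruits elongation factors to the ribosome through RPLP1 and RPLP2, which dimerise on RPLP0. RPLP1 had 117.3 and 109.5 CPM in N, 122.4, 113.6 and 121 CPM in bIP, 91.6, 130.5, 58.94 and 139.9 CPM in bRG, and 116.5, 204.4, 134.8 and 186.3 CPM in aRG. RPLP2 had 116.4 and 67.26 CPM in N, 126.2, 115.3 and 84.76 CPM in bIP, 81, 97, 45.86 and 63.96 CPM in bRG, and 71.72, 134.2, 105.9 and 119.5 CPM in aRG. Both overlapped between populations, and both were lowest in bRG 3. For bRG minus aRG the values of RPLP0, RPLP1 and RPLP2 were -0.56, -0.61 and -0.58, and none passed (edgeR adjusted p = 0.330, 0.457 and 0.520). Without bRG 3 they were -0.61, -0.41 and -0.42 (edgeR adjusted p = 0.199, 0.507 and 0.577).

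The genes with the most scaled counts, a quantity that also grows with transcript length, were RPL3, RPS14, RPL7, RPS3, RPL5 and RPS27. RPL3, a core protein near the peptidyl transferase centre, ranged only from 284.8 CPM in bRG 3 to 465.9 CPM in aRG 4. RPL5, which carries a ribosomal RNA of the large subunit and can bind MDM2, ranged from 200.4 CPM in bIP 2 to 346.7 CPM in bRG 3. RPS14, a small subunit gene whose loss drives an anaemia with a deletion on the long arm of a chromosome, had 306 and 325.6 CPM in N, 289.9, 267.7 and 286.5 CPM in bIP, 272.9, 237.6, 502.1 and 284.9 CPM in bRG, and 364.2, 339.7, 284.8 and 325.2 CPM in aRG. Library bRG 3 was by far the highest, and the ranges of the populations overlapped except that of bIP with that of N. RPL7, of the large subunit, was likewise highest in bRG 3 at 505.6 CPM, next to 212.2 to 279.7 CPM in the other bRG libraries and 306.4 to 482 CPM in aRG. None of these except RPS3 was called in any comparison.

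Within populations the median SD of log2 CPM was 0.282 over the 76 genes and 0.528 over all genes tested, whose levels were not matched. RPL3, RPL10A, which forms the mobile L1 stalk, and RPS24 were among the genes that varied least (SD 0.140, 0.150 and 0.160). RPL39L, RPL3L, RPS27L and RPS29 varied most (SD 1.15, 1.10, 0.826 and 0.703). RPS29, a short zinc-binding protein of the small subunit, had 101.6 CPM in N 1 and 27.52 CPM in the unnumbered N library, a spread wider than the difference between any of its population means. Library aRG 4 was the highest for 34 of the 76 genes, aRG 2 for 11 and N 1 for 10. Library bRG 3 was the lowest for 27 genes and the highest for 8, and bRG 2 the lowest for 13. The first principal component of the 76 genes held 33.7% of their variance and set bRG 3 (5.50) apart from the other 12 libraries (-2.56 to 1.51).

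**Figure D4:**
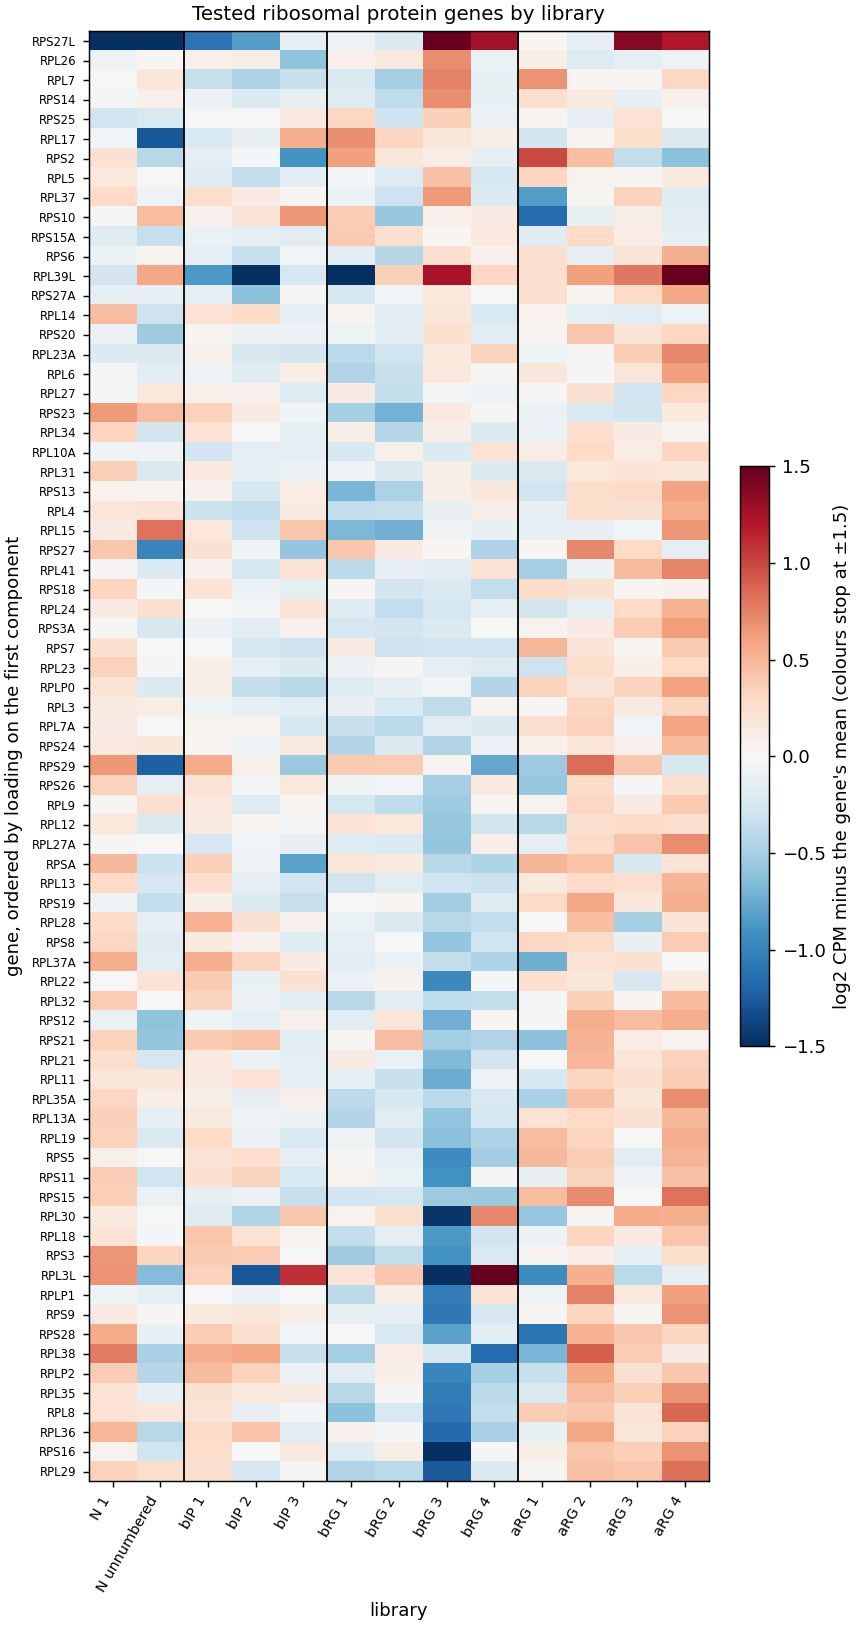
Log2 CPM of tested ribosomal protein genes, each minus its own mean over 13 libraries (colour, stopped at 1.5 in each direction), with genes in rows ordered by their loading on the first principal component and libraries in columns by population. The bRG 3 column runs from red at the top (RPL26, RPL7, RPS14) to blue at the bottom (RPL29, RPS16), while aRG 4 is red in most rows.

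Counts on ribosomal protein pseudogenes could be read from the gorGor6 table, which lists pseudogenes in rows of their own. It held 1136 such rows, 996 of them with a count, and 76 of its 81 genes of the rule had at least 1. Pseudogene rows took 295447 counts beside 2099477 on the genes, or 12.3% of the family. By library this share was 12.32% and 11.41% in N, 12.31%, 13.75% and 11.13% in bIP, 17.41%, 15.88%, 16.31% and 12.21% in bRG, and 16.15%, 11.04%, 9.746% and 7.069% in aRG. It was highest in bRG 1 and lowest in aRG 4, and the populations overlapped. The rows with the most counts were RPS18P9 (16118), RPL5P4 (15980), RPL23AP32 (10673), RPL32P3 (9823) and RPS12P26 (8603). RPS3P6 (4181) had 651 and 755 unscaled counts in N and 545 to 756 in bIP, against 81 to 125 in bRG and 51 to 104 in aRG. No source used here says how the authors assigned reads that align to several places, so the part of these counts that came from the parent mRNA was not tested.

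For 12 genes the pseudogene rows held more counts than the gene. RPL18, RPL35A, RPL36 and RPS15 were listed at 0 in every gorGor6 library, although the hg38 table gave them 16737, 10388, 9226 and 13410 counts. The 2 pseudogene rows of RPS15 held 140 counts, so its calls rest on the hg38 table alone. Among the other 8 were RPL17, RPL22, RPL23A, RPL26, RPS10, RPS12 and RPS15A. RPS12 had 7572 counts and its pseudogenes 11214, RPS10 had 2211 and 3510, and RPL17 had 1946 and 4727. The RPS10 and RPL17 genes also share names with read-through rows (RPS10-NUDT3 and RPL17-C18orf32), which were at 0 in both tables. Over the genes the gorGor6 count was 1.91 times the hg38 count at the median. The total counts of every library were also larger on gorGor6, for example 12574865 against 5884697 in aRG 1. RPL22 fell short of the median ratio, with 1391 gorGor6 counts against 2489 in hg38. The levels of all 12 are uncertain, including the RPL17 value for bRG minus aRG of 0.38 (SE 0.432, edgeR adjusted p = 0.847), which was among the highest of the 76.

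**Figure D5:**
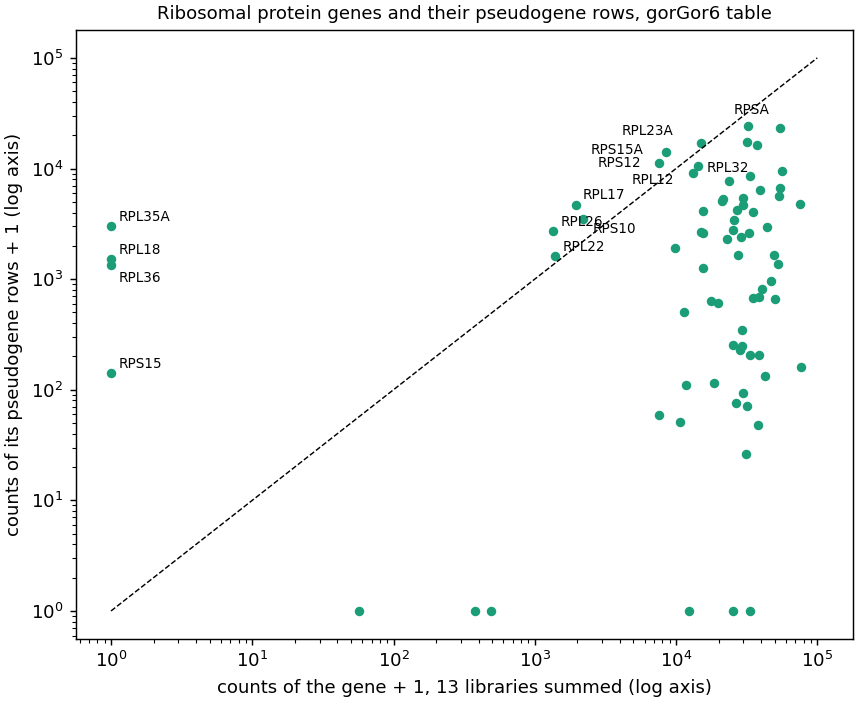
Counts of ribosomal protein genes in the gorGor6 table over 13 libraries (horizontal, log axis) against the counts of their pseudogene rows (vertical, log axis), each plus 1. The dashed line marks equal counts, the 4 genes listed at 0 stand at the left edge, and RPL17, RPL26, RPS12, RPS15A and RPL23A are among the named genes above the line.

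The gorGor6 table gave the same direction. The median for bRG minus aRG was -0.43 over 76 tested genes (all genes 0.04), with 69 negative (all genes 47.1%). RPL8 was called lower there too (-1.10, edgeR adjusted p = 0.0401, background 0.496%). RPS27L, which has no pseudogene row in that table, was called for N minus aRG (adjusted p = 0.0102), N minus bRG (0.00526) and bIP minus bRG (0.0486), and RPS3 for N minus bRG (0.0261). RPS3 was not called there for bIP minus bRG, with a log2 difference of 0.79 (SE 0.246, edgeR adjusted p = 0.0571). The backgrounds of those 3 comparisons were 8.97%, 9.31% and 7.44% of 38520 genes. The 619 tested pseudogene rows had other medians than their parents. For bRG minus aRG their median was 0.11 with none called, and for N minus aRG it was -0.71, against -0.29 over all genes of that table.

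Only the gorGor6 table listed RPL10, RPL36A, RPL39 and RPS4X, which the RefSeq gorilla annotation places on X. RPS4X, a small subunit protein, measured 154.9 and 131.1 CPM in N, 117.6, 112.7 and 108 CPM in bIP, 78.4, 85.82, 89.7 and 75.37 CPM in bRG, and 159, 131.7, 123.4 and 172.9 CPM in aRG. The bRG libraries lay below all others, but neither bRG minus aRG (-0.83, SE 0.218, edgeR adjusted p = 0.139) nor N minus bRG (0.80, SE 0.258, edgeR adjusted p = 0.0582) passed. RPL10, which completes the large subunit, had 402.9 and 314.2 CPM in N, 345.2, 361.2 and 292.4 CPM in bIP, 313.2, 303.9, 242 and 300.4 CPM in bRG, and 366.7, 406.9, 321.5 and 416.9 CPM in aRG. Its bRG range also lay below its aRG range (-0.38, SE 0.215, edgeR adjusted p = 0.870). RPL39 averaged 19.6 ± 4.36 CPM in bRG and 34.5 ± 12.3 CPM in aRG, and RPL36A 53.5 ± 11.7 CPM in bRG and 44.5 ± 7.56 CPM in aRG (SD, n = 4 each), with overlapping ranges and no call for either in any comparison.

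Other genes of ribosome production were counted from lists. The shares of all genes tested that were called are the backgrounds for these counts: 1.26% for bRG minus aRG, 18.4% for bIP minus aRG, 16.7% for bIP minus bRG and 19.8% for each of N minus aRG and N minus bRG. Of 7 ribosomal proteins outside the symbol rule, none was called in any comparison. FAU, a ubiquitin-like protein fused to a small subunit protein, had 63.57, 59.62, 44.09 and 58.15 CPM in bRG and 58.90, 92.20, 72.95 and 93.70 CPM in aRG, and the median of the 7 was -0.44 for bRG minus aRG. Of 21 elongation factors and other TOP mRNAs, 0 were called for bRG minus aRG (median -0.32). EEF2, which moves the ribosome along the mRNA, had 64.22 and 58.12 CPM in N, 53.75, 54.61 and 62.47 CPM in bIP, 34.01, 32.70, 16.15 and 35.31 CPM in bRG, and 35.41, 61.80, 39.92 and 61.85 CPM in aRG. Both N and all bIP libraries lay above every bRG library, and EEF2 was higher by 1.05 for N minus bRG (SE 0.328, edgeR adjusted p = 0.0307) and by 0.95 for bIP minus bRG (SE 0.296, adjusted p = 0.0352). These calls of EEF2 were lost without either N library and without any 1 of the bIP libraries. Without bRG 3 the EEF2 values were 0.85 for N minus bRG and 0.74 for bIP minus bRG. Both were still called (edgeR adjusted p = 0.0309 and 0.0479). In bIP minus aRG the list had 3 genes called lower: VIM, a radial glia filament (-3.69, SE 0.307, edgeR adjusted p = 1.84e-07), NACA, which binds nascent chains (-0.69, SE 0.194, adjusted p = 0.0168), and EEF1A1, which delivers tRNAs (-0.72, SE 0.234, adjusted p = 0.0398). The EEF1A1 call was lost in 8 of 13 removals of a single library, and that of NACA without bIP 2 or bIP 3.

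Ribosome assembly factors process the ribosomal RNA and join the proteins to it. Of 67 tested, 0 were called for bRG minus aRG (median 0.11), 2 higher and 0 lower for bIP minus aRG, 2 higher and 2 lower for bIP minus bRG, and 1 higher and 2 lower for N minus bRG. For N minus aRG 1 was higher and 1 lower (median 0.04). The higher one was BOP1, which processes large subunit RNA, at 88 and 53.74 CPM in N, 54.35, 75.28 and 34.07 CPM in bIP, 21.70, 26.92, 18.63 and 24.56 CPM in bRG, and 16.80, 35.97, 17.90 and 24.64 CPM in aRG. The N range lay above both radial glia ranges, with a log2 difference of 1.57 for N minus aRG (SE 0.362, edgeR adjusted p = 0.00419). The lower one was LSG1, a GTPase of late large subunit maturation (-1.08, SE 0.298, edgeR adjusted p = 0.015). Among 24 regulators, none was called for bRG minus aRG. For N minus aRG 2 were higher and 1 lower, for N minus bRG 3 and 1, and for bIP 1 higher and 3 lower against each kind of radial glia. MYC, which drives transcription of ribosome genes, was higher in N and bIP: 19.73 and 25.93 CPM in N, 14.93, 24.71 and 25.98 CPM in bIP, 9.228, 5.895, 3.065 and 8.661 CPM in bRG, and 5.781, 5.566, 10.63 and 6.803 CPM in aRG. The N minus aRG value was 1.66 (SE 0.449, edgeR adjusted p = 0.0132) and the bIP minus aRG value 1.60 (SE 0.411, adjusted p = 0.00981). EIF4EBP1, the translation repressor that mTOR inactivates, was also higher for N minus aRG (0.94, SE 0.309, edgeR adjusted p = 0.0392). Of 17 genes of RNA polymerase I transcription, TAF1B was higher (1.33, SE 0.319, edgeR adjusted p = 0.00568) and POLR2L lower (-1.60, SE 0.5, adjusted p = 0.0306) for N minus aRG. With 1 neuron library left out, LSG1, EIF4EBP1 and POLR2L lost their N minus aRG calls without either one, BOP1 without N 1, and MYC and TAF1B without the unnumbered N library, while EIF4EBP1 lost its call in 7 of 13 removals and POLR2L in 4. None of 30 initiation factors outside the TOP list was called in any comparison, and no gene of any of these lists was called for N minus bIP.

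Mitochondrial ribosomal proteins, which build a separate ribosome, were measured in 76 tested genes. Their median for bRG minus aRG was -0.12 with none called, for bIP minus aRG none was called, for bIP minus bRG 1 was higher and 2 lower, and for N minus aRG 1 was higher, next to the same backgrounds of 18.4%, 16.7% and 19.8%. For N minus bRG it was 0.20 with 2 called higher, MRPS21 and MRPL14 (1.23, SE 0.332, edgeR adjusted p = 0.0134). MRPS21 measured 326.5 and 334.2 CPM in N, against 147.5 to 181.8 CPM in bRG, a log2 difference of 1.00 (SE 0.226, edgeR adjusted p = 0.00403). The MRPL14 call was lost without the unnumbered N library (adjusted p = 0.279). No difference between this list and the cytosolic genes was tested.

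The genes outside the rule whose log2 CPM most resembled the mean of the 76 were named by Pearson correlation over the 13 libraries, as a description, since all points share the libraries and their scaling. They were FAU (r = 0.903), ATP5MC2 (0.893), PIM3 (0.886), TMEM129 (0.877) and POLH (0.857).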

How the data were processed

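Raw counts of reads, listed by gene symbol for 13 libraries, were deposited by the authors as 2 tables, 1 on hg38 and 1 named for gorGor6. STAR and hg38 are named, with no role or version, per the submitters' processing notes. No source used here gives the counter, the annotation, the use of strand or the treatment of reads with several alignments. Genes that share sequence with paralogs, pseudogenes or overlapping rows are therefore uncertain. Per the labels' protocols, cDNA was amplified for 12 to 17 PCR cycles and cleaned with 0.6 volumes of beads. Such a clean-up can remove short cDNA, and its effect on these short mRNAs was not tested. PCR reads without molecular identifiers are not independent molecules.

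The hg38 table was the main one. Both tables carry the population and a number in each column name, and all per-sample columns were used. A gorGor6 row without a gene name (0.0035% to 0.0077% of counts) was left out. Differences were tested with edgeR 4.0.16 in R 4.3.3 (TMM scaling, filterByExpr with a minimum count of 10, quasi-likelihood F-test), in 1 fit of all 13 libraries with a mean per population, and Benjamini-Hochberg adjusted over all genes tested, with a threshold of 0.05. Standard errors were taken from the fold change and the F statistic. Levels are CPM of TMM-scaled library sizes, and log2 CPM used a prior count of 2. Gorilla chromosomes and names came from RefSeq's table, where 74 of the 77 genes were found. No sequence is printed.

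The genes, the lists and the tests were chosen with earlier results of these data known, so no count of them is independent support. Genes named are those called in a comparison, the 6 with the highest mean CPM, the stalk genes and paralogs, those whose 2 tables differ by over 2 times after scaling, the 4 highest and 4 lowest for N minus aRG and bRG minus aRG, and the 4 with the smallest and largest SD within populations. In lists, up to 3 called genes with the smallest p could be named. Some genes that this rule names are not reported here, though they stay in the counts. EOMES, MALAT1, the members on X, FAU and the pseudogene rows were named after their values were seen. Alternatives were DESeq2 1.42.0, its size factors, limma 3.58.1 with quality weights, no low-count filter, scaling without these genes, the gorGor6 table, fits of 2 populations, a replicate block, and each library left out. After the data were seen, bRG and aRG were also compared within numbers, 3 counts were made without bRG 3 or aRG 4, and further named genes were fitted with each library left out.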

Additional observations from a re-analysis of the deposited data

Results flagged for a closer look

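In all, 2 values in populations of 4 libraries lay far from the other 3 by Dixon's criterion. They came from 72 sets examined, of single genes or of the summed share of counts, and chance marks about 1 in 20. RPL15 measured 243.4 CPM in library aRG 4, next to 140, 142.3 and 149.9 CPM in aRG 1 to 3. RPS12 measured 29.45 CPM in library aRG 1, next to 43.68, 41.46 and 43.60 CPM in aRG 2 to 4, and more gorGor6 counts fell on its pseudogene rows than on the gene. Library aRG 4 was the highest library for 34 of the 76 tested genes.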

How the results depend on the processing

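No called gene reversed its direction in any alternative tried. The uncalled RPS27L value for bRG minus aRG (0.33) was -0.40 with limma and, over removals of single libraries, ran from -0.29 (without bRG 3) to 0.60 (without aRG 3). The counts of calls are small and moved easily. Apart from the gorGor6 table, the share of all genes called was not taken for the alternatives and removals below. Their counts therefore have no background, and a larger count does not show more change in these genes than in others. For bRG minus aRG (2 calls), DESeq2 called 5, 1 was called in the gorGor6 table and a fit of those 2 populations called 0. For bIP minus aRG (1 call), DESeq2 size factors gave 0, DESeq2 4, counts on gorGor6 0, the fit of 2 populations 5 and limma 11. For bIP minus bRG (2 calls), the gorGor6 table and the fit of 2 populations gave 1 each. For N minus aRG (1 call) limma gave 5, and for N minus bRG (2 calls) the fit of 2 populations gave 1 and limma 5. Over the 4 populations (5 calls), the gorGor6 table gave 2 and limma 11. In the fit of 2 populations the adjusted p was 0.106 for RPL8 and 0.117 for RPS15 in bRG minus aRG.

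Leaving out single libraries gave 0 to 2 calls for bRG minus aRG, 0 to 7 for bIP minus aRG, 0 to 3 for bIP minus bRG, 0 to 2 for N minus aRG, 0 to 4 for N minus bRG, 0 for N minus bIP and 2 to 7 over the 4 populations. The medians ranged from -0.44 to -0.28 (bRG minus aRG), -0.28 to -0.12 (bIP minus aRG), 0.11 to 0.19 (bIP minus bRG), -0.31 to -0.018 (N minus aRG), 0.018 to 0.37 (N minus bRG) and -0.11 to 0.17 (N minus bIP). Mean shares ranged from 0.775% to 0.973% in N, 0.922% to 1.02% in bIP, 0.855% to 0.971% in bRG and 1.07% to 1.17% in aRG. The causes were not tested.

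Library numbers were not taken to pair the samples, since not every same-number pair had deviations that correlated above 0.1. Over the 13 pairs the correlation ran from -0.01 to 0.39, 7 were above 0.1, and 6 of 12 libraries correlated best with their own number, a hint from the data and not from the design. Pairs of a library numbered 1 or 2 with one numbered 3 or 4 were all negative except bRG 3 with aRG 1 (0.108). The lowest was -0.28, for bRG 3 with aRG 2. The main fit has no term for this split, so its p-values do not take it into account. With the replicate block, which drops the unnumbered N library, bRG minus aRG had 2 calls with a median of -0.39, bIP minus aRG had 2 calls, bIP minus bRG 4, and the N minus bRG median was 0.43. With 2 to 4 libraries a population, a log2 difference within about 2 standard errors (median 0.227 to 0.292) was not detectable. The adjusted threshold asked for more, and how much more differed between comparisons. For bRG minus aRG, RPL29 at -0.99 (SE 0.269, edgeR adjusted p = 0.109) and RPS19 at -0.56 (SE 0.204, adjusted p = 0.343) were not called. For bIP minus aRG, RPS15 at -0.71 (SE 0.236, edgeR adjusted p = 0.0445) was called. A missing call therefore does not show that a change was small.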
